A study of Mus musculus with 59 samples.

Results

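PPARα binding in the liver was compared between fed and fasted mice. The members are the sites built from the PPARα peaks of fed livers (21410) and of fasted livers (29085), which together make 50495 of the 102931 peaks in the 7 peak lists analysed here. Peaks of the fed and fasted states counted as the same site when their centers lay within 200 bp, which gave 33399 sites. Of these, 17096 (51.2%) were present in both states and are called kept. A further 4314 (12.9%) were present only in fed livers and are called lost, and 11989 (35.9%) were present only in fasted livers and are called gained.

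The livers came from male wild-type C57BL/6 mice that either fed ad libitum or were fasted overnight, with 3 animals in each state. PPARα was mapped by chromatin immunoprecipitation and sequencing (ChIP-seq), which locates the DNA that a protein occupies. Each list holds the peaks called over the 3 replicates of a state together. Lists of the related receptor PPARδ and of the repressor BCL6 from fed and fasted wild-type C57BL/6 livers were used as independent readouts at the same sites, together with BCL6 from fed Bcl6 fl/fl livers, the floxed control strain without Cre. Because the lists give positions only, a peak is either listed or not, and a site outside a list may still be bound below the calling threshold. The number of reads behind each list is unknown, so a difference in depth between the fed and the fasted libraries and a difference in binding cannot be told apart. No list has a replicate error, and the 95% intervals below cover counting error over sites only (Wilson for a share, Newcombe for a difference of shares).

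PPARα is a nuclear receptor that is activated by fatty acids and their derivatives. It binds DNA with the retinoid X receptor at a pair of AGGTCA hexamers that point the same way and are 1 base apart, and it is best known in liver for turning on fatty acid oxidation and ketone body synthesis during fasting. PPARδ recognizes the same element, and BCL6 is a zinc finger repressor.

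Sites near genes of fatty acid metabolism that came closest to the PPAR element are printed as examples. They are not typical of a class, since few sites of any class hold the element. They were taken in order of the fewest mismatches among sites that overlap no exon. The reference sequence of GRCm38 (the assembly named mm10) is given 5′ to 3′. Capitals mark the best match to the element in the central 100 bp, and equal or closer matches farther out are not marked. The kept examples lie 406 bp downstream of the Etfdh TSS, within the promoter window of another TSS (chr3:79628245-79628474, minus strand), and 408 bp upstream of Acox2 (chr14:8259310-8259540, plus strand). Etfdh passes electrons from fatty acid oxidation to the respiratory chain and Acox2 is a peroxisomal acyl-CoA oxidase, and each match has 1 mismatch.
Etfdh, kept: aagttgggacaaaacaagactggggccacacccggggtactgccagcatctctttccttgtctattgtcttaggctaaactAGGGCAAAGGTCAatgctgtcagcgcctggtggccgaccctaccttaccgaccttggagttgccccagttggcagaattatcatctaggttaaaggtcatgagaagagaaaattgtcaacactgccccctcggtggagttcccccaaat
Acox2, kept: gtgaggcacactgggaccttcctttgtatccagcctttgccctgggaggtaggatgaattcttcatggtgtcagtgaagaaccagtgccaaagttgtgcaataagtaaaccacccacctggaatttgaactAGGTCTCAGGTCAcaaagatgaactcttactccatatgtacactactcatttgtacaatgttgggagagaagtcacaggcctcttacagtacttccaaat
The gained examples outside promoters hold the element with 0 mismatches. They lie in an intron of Bdh1, an enzyme that interconverts the ketone bodies (chr16:31424823-31425045, plus strand), and in an intron of Dlec1 downstream of Acaa1b, a peroxisomal thiolase (chr9:119145162-119145384, minus strand).
Bdh1, gained: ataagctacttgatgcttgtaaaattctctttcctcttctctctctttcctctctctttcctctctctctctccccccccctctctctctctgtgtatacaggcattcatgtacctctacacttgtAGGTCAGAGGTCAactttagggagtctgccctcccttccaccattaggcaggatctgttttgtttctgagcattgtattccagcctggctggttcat
Acaa1b, gained: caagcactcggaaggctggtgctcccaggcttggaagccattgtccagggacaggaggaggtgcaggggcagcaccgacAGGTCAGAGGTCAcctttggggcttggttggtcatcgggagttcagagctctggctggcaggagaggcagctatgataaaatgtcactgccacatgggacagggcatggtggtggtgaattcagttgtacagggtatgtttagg
The closest gained promoter sites are 409 bp upstream of the peroxisome biogenesis gene Pex10 (chr4:155066510-155066732, plus strand) and 979 bp upstream of Fgf21, a fasting hormone (chr7:45616358-45616580, plus strand). The closest lost sites lie in introns of Etfa, an electron acceptor in fatty acid oxidation (chr9:55511786-55512002, plus strand), and of Creb3l3, a liver transcription factor that acts with PPARα (chr10:81090789-81091005, minus strand). Each of these has 3 mismatches, which is more than the 2 allowed for an element below.
Pex10, gained promoter: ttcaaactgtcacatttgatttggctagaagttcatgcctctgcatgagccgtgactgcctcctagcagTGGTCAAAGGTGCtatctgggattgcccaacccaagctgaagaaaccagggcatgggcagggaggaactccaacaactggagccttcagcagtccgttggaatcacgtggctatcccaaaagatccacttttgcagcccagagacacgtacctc
Fgf21, gained promoter: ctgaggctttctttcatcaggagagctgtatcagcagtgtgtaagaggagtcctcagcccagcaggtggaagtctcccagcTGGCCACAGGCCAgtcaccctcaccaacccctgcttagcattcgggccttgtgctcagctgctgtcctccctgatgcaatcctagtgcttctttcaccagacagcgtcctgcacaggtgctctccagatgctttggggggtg
Etfa, lost: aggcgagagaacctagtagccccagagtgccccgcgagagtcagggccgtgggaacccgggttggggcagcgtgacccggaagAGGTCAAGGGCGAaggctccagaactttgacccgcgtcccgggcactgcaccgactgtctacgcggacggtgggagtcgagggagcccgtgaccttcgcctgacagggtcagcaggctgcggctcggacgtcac
Creb3l3, lost: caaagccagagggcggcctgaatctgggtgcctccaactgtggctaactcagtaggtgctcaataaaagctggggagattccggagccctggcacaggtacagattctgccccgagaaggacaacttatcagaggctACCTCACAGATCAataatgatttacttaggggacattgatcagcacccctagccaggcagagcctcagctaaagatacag
The Acox2 site had both a BCL6 and a PPARδ peak, the Etfdh site had PPARδ without BCL6, and none of the gained and lost sites printed had either.

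Most fed binding persisted. In total 79.9% (79.3 to 80.4%) of fed peaks had a fasted peak within 200 bp, and 41.2% (40.7 to 41.8%) of fasted peaks had no fed peak. Matched peaks were close, with a median of 23 bp between centers. Few pairs lay near the limit, with 90 fed peaks at 150 to 200 bp from a fasted peak and 54 just outside, at 200 to 250 bp. Fed peaks were all 216 bp wide and fasted peaks all 222 bp wide, so width carries no information on strength.

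Position relative to genes differed between the classes. A promoter, taken as 1000 bp upstream to 100 bp downstream of a TSS, held 23.0% of gained sites, 9.80% of kept sites and 5.47% of lost sites. The gained share exceeded the kept share by 13.2 points (12.3 to 14.1), and the lost share was below the kept share (difference -4.33 points, -5.11 to -3.49). Viewed from the promoters, 2757 of 4668 promoter sites (59.1%) were gained, against 35.9% of all sites. Exon sites followed with 47.1% gained, then intron sites with 33.1% and intergenic sites with 29.2%.

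The change with distance was concentrated close to the TSS. Within 0.1 kb of a TSS 65.0% of 2455 sites (63.1 to 66.8%) were gained, and from 0.1 to 1 kb 52.8% (51.2 to 54.5%) were. From 1 to 5 kb the gained share was 31.5%, and it stayed between 28.3% and 32.5% at all larger distances. The lost share ran the other way, from 4.11% within 0.1 kb to 19.8% (18.5 to 21.2%) beyond 100 kb. The median distance to the nearest TSS was 9495 bp for gained, 15693 bp for kept and 21373 bp for lost sites.

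**Figure D1:**
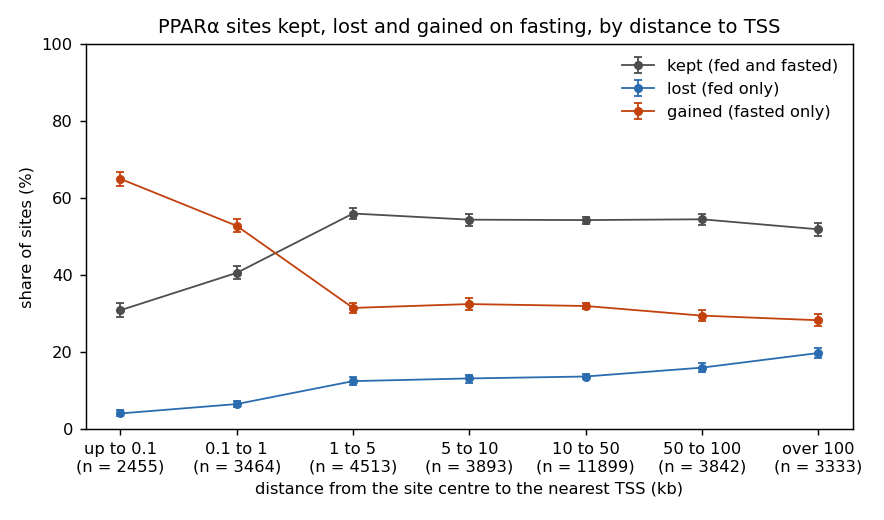
Share of PPARα sites that were kept (gray), lost (blue) and gained (orange) in bins of distance to the nearest TSS in kb; n is the number of sites in a bin and bars are 95% Wilson intervals. The gained share falls from 65.0% within 0.1 kb to 28.3% beyond 100 kb, and the lost share rises from 4.11% to 19.8%.

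Gained promoter sites lay mainly in CpG-dense DNA, the kind found at the promoters of broadly expressed genes. Of gained promoter sites 73.4% were CpG-dense, against 42.8% of kept promoter sites. The share of all RefSeq promoters that are CpG-dense was not computed. A 200 bp window was called CpG-dense when at least 50% of its bases were G or C and the observed to expected CpG ratio was at least 0.6. This held for 22.4% of gained, 6.28% of kept and 3.43% of lost sites, a difference of 16.1 points (15.3 to 16.9) between gained and kept and of -2.85 points (-3.48 to -2.17) between lost and kept. In CpG-dense promoters 2025 of 2834 sites (71.5%) were gained, and in other promoters 39.9% were. Outside promoters the contrast persisted, with 61.4% of 1071 CpG-dense sites gained and 31.0% of the remaining 27660. Median G+C content was 51.0% in gained, 47.5% in kept and 44.5% in lost sites.

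The PPAR element was found with at most 2 mismatches in the central 100 bp of 3140 sites (9.40%). Windows 1000 bp to either side held it in 1.58%, and the reversed order of its bases was found in 1.34% of sites. The 100 bp directly upstream of each RefSeq TSS held it in 1.02%. Over all sites the share did not separate gained from kept, with 10.0% and 9.78% (difference 0.229 points, -0.465 to 0.931), but it was lower in lost sites, with 6.21% (difference -3.57 points, -4.39 to -2.69). The differences in and outside promoters had opposite signs. In promoters 3.19% of gained and 5.67% of kept sites had the element (difference -2.48 points, -3.83 to -1.24). Outside promoters it was more frequent in gained than in kept sites, with 12.0% and 10.2% (difference 1.82 points, 1.01 to 2.64). Lost sites outside promoters had it in 6.38%.

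Closer matches outside promoters were more often gained. Of the 71 sites with 0 mismatches 40 (56.3%, 44.8 to 67.3%) were gained, which includes the Bdh1 and Acaa1b sites printed above. The gained share was 42.4% of 641 sites at 1 mismatch, 35.8% of 2237 at 2, and 30.2% of 5647 at 3. With 4 or more mismatches it was 31.9% of 20135 sites, and there the lost share was 15.7% (15.2 to 16.2%). The lost share was 6.55% (4.88 to 8.74%) at 1 mismatch and 9.86% at 0, where the interval is wide (4.86 to 19.0%).

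**Figure D2:**
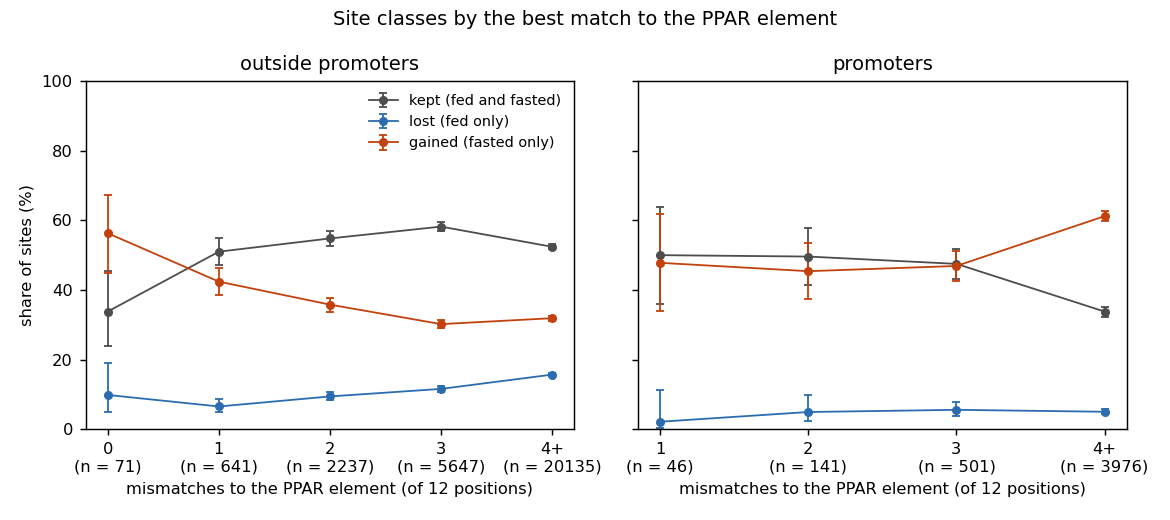
Share of sites kept (gray), lost (blue) and gained (orange) by the number of mismatches of the best PPAR element match in the central 100 bp, outside promoters (left) and in promoters (right), with 95% Wilson intervals; bins of fewer than 20 sites are not drawn. Outside promoters the gained share falls from 56.3% at 0 mismatches to 30.2% at 3, whereas in promoters it is highest, at 61.2%, where 4 or more positions mismatch.

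The bases beside and within the element also differed. PPAR-RXR dimers favor AACT immediately 5′ of the element, as in the Etfdh and Acox2 sites above. Outside promoters, among sites with the element, AACT with at most 1 mismatch preceded it in 152 of 1112 gained sites (13.7%), 164 of 1577 kept sites (10.4%) and 11 of 260 lost sites (4.23%). Gained exceeded kept by 3.27 points (0.787 to 5.84), and lost fell short of kept (difference -6.17 points, -8.62 to -2.68). How often 4 bases match AACT this closely by chance was not computed, so these shares have no background beside them. The second hexamer, at the 3′ end, was a perfect AGGTCA in 38.4% of gained and 33.8% of kept elements (difference 4.60 points, 0.921 to 8.29), and the first hexamer in 29.2% and 25.6% (difference 3.67 points, 0.261 to 7.12). In lost elements the second hexamer was perfect in 30.4% and the first in 29.2%, and the intervals of their differences from kept include 0 (-9.19 to 2.86 and -1.97 to 9.84). Elements lay near the middle of sites in every class, with medians of 19.5 bp from the center in gained and kept and 20.5 bp in lost sites.

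Motifs of several liver factors marked kept sites more than gained sites. All motifs were searched exactly, on both strands, in the central 100 bp. Outside promoters the C/EBP motif TTGCNCAA, bound by regulators of hepatic metabolism, was in 6.41% of kept and 3.88% of gained sites (difference -2.53 points, -3.08 to -1.97). The HNF6 motif ATCAATA was in 5.73% of kept and 3.22% of gained sites (difference -2.51 points, -3.02 to -1.99), and the FOXA motif TGTTTAC, of the forkhead pioneer factors, in 5.19% and 3.46% (difference -1.73 points, -2.24 to -1.21). Windows 1000 bp to either side of all sites held these motifs in 0.951%, 1.06% and 1.38%. The 100 bp directly upstream of each RefSeq TSS held them in 0.854%, 0.570% and 0.858%. HNF4, with CAAAGTCCA, did not separate gained from kept outside promoters (1.40% and 1.66%, difference -0.263 points, -0.570 to 0.0596).

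Lost sites had their own pattern outside promoters. HNF6 was in 7.21% of lost sites, above kept sites by 1.48 points (0.640 to 2.39). The BCL6/STAT motif TTCCNNGAA, whose letters fit both BCL6 and the STAT proteins downstream of growth hormone, was in 4.61% of lost, 2.57% of kept and 1.65% of gained sites. The lost share exceeded the kept share by 2.04 points (1.39 to 2.77). It did so by 1.23 points (0.414 to 2.13) when sites with a C57BL/6 peak of BCL6 or PPARδ were left out. Of the sites that remained, 15.6% of lost and 30.5% of kept had a BCL6 peak in fed Bcl6 fl/fl livers.

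In promoters, gained sites more often held motifs of several general promoter factors. The SP/KLF motif GGGGCGGGG was in 8.78% of gained and 3.64% of kept promoter sites (difference 5.14 points, 3.72 to 6.51). It was in 9.24% of the 100 bp windows directly upstream of all RefSeq TSSs. These upstream windows are not matched in position to the promoter sites, which lie up to 1000 bp upstream or 100 bp downstream of a TSS. CRE, the TGACGTCA motif of CREB, was in 1.41% of gained and 0.478% of kept promoter sites (difference 0.937 points, 0.340 to 1.50), beside 1.46% of the upstream windows. ETS, with CCGGAAGT, was in 6.17% and 4.72% (difference 1.45 points, 0.0483 to 2.78), beside 2.43% of the upstream windows. For NRF1, with GCATGCGC, the difference was 0.944 points (0.188 to 1.64), and for YY1, with AAGATGGC, 0.662 points (0.0127 to 1.25). These motifs were in 1.75% and 0.560% of the upstream windows. The NF-Y motif AGCCAATC was in 1.09% and 0.836%, a difference whose interval includes 0 (-0.397 to 0.824), beside 2.62% of the upstream windows. Among CpG-dense promoters the SP/KLF difference was 3.92 points (1.50 to 6.07). The intervals of the others include 0 there, with -1.25 points for ETS (-3.85 to 1.06), 0.752 for CRE (-0.381 to 1.59), 0.148 for NRF1 (-1.37 to 1.33), 0.514 for YY1 (-0.654 to 1.36) and 0.717 for NF-Y (-0.171 to 1.34).

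BCL6 and PPARδ were found mainly at kept sites. A BCL6 peak of fed or fasted C57BL/6 livers lay within 200 bp of 60.6% of kept, 38.6% of lost and 13.4% of gained sites. The gained minus kept difference was -47.2 points (-48.1 to -46.2), and the lost minus kept difference was -22.0 points (-23.6 to -20.4). Fed Bcl6 fl/fl livers, a separate cohort, gave 61.1%, 32.7% and 13.7%. PPARδ in either state was at 34.1% of kept, 7.07% of lost and 6.85% of gained sites, with a gained minus kept difference of -27.3 points (-28.1 to -26.4) and a lost minus kept difference of -27.0 points (-28.1 to -26.0).

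Sites with both factors had the highest kept share. Where both were present, 4299 of 4629 sites (92.9%) were kept, 3.48% were lost and 3.65% gained. With BCL6 only 67.3% of 9013 sites were kept, and with PPARδ only 65.8% of 2327 were. With neither factor 29.8% of 17430 sites were kept and 55.8% were gained. Whether peak strength, which the lists do not hold, moves with these shares was not tested.

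**Figure D3:**
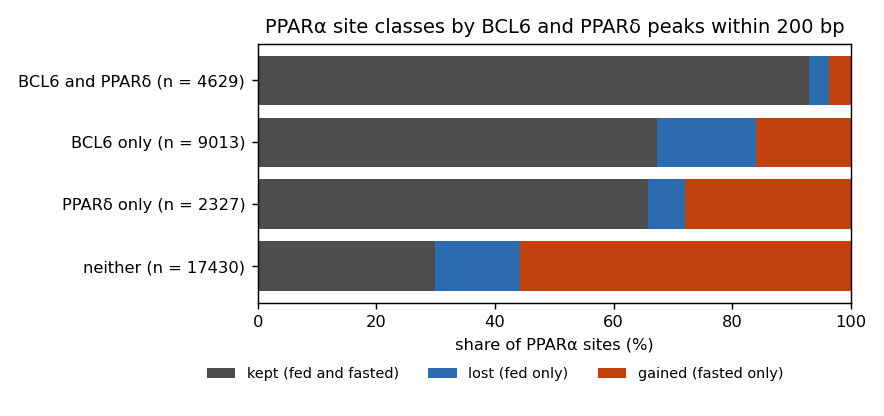
Stacked shares (%) of PPARα sites that were kept (gray), lost (blue) and gained (orange), by the presence of BCL6 and PPARδ peaks of either state within 200 bp; n is the number of sites. The kept share is 92.9% with both factors and 29.8% with neither, and the gained share is 55.8% with neither.

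Fed BCL6 peaks were listed in fasted livers less often where PPARα was lost. Of sites with a fed BCL6 peak, 63.5% of the kept (5952 of 9379), 428 of 1586 of the lost (24.9 to 29.2%) and 35.5% of the gained PPARα sites (448 of 1261) also had a fasted BCL6 peak. The lost minus kept difference was -36.5 points (-38.8 to -34.0) and the gained minus kept difference was -27.9 points (-30.7 to -25.1). PPARδ showed the same order at lower shares. Of sites with a fed PPARδ peak, 22.7% of kept, 3.78% of lost and 15.9% of gained PPARα sites had a fasted one, and the lost minus kept difference was -18.9 points (-20.9 to -15.9). The fasted lists of these factors are shorter than the fed ones, with 9613 and 15642 peaks for BCL6 and 2399 and 7328 for PPARδ.

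The element difference was also present at sites without these factors. Outside promoters and without such a peak, the PPAR element was in 11.8% of gained, 10.2% of kept and 7.00% of lost sites. Gained exceeded kept by 1.60 points (0.406 to 2.77). Some of these sites had a BCL6 peak in fed Bcl6 fl/fl livers, namely 9.11% of gained, 30.5% of kept and 15.6% of lost sites.

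Gained sites lay farther from the nearest kept site than lost sites did. A kept site lay within 5 kb of 21.4% of gained sites (20.6 to 22.1%), of 31.6% of lost sites (30.2 to 33.0%) and, counting its neighbors only, of 40.8% of kept sites (40.1 to 41.6%). Gained promoter sites had such a neighbor in 17.3% of cases. Median distances to the nearest kept site were 19364 bp for gained, 14440 bp for lost and 7276 bp for kept sites.

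The gained share differed among chromosomes. On autosomes it ranged from 32.7% (30.6 to 34.9%) on chromosome 3 to 41.1% (38.9 to 43.4%) on chromosome 7, where 18.3% of sites were in promoters. Chromosome X had the highest share, with 262 of 570 sites gained (46.0%, 41.9 to 50.1%), and its interval overlaps that of chromosome 7. It was also thinly bound, with 3.49 sites per Mb against 10.1 on chromosome 14 and 21.9 on chromosome 19, and 19.3% of its sites were in promoters. Outside promoters its gained share was 40.9% (36.5 to 45.4%), against 36.7% on chromosome 7 and 28.5% on chromosome 19. The livers were from males, in which X is present as a single copy, and the part of copy number was not tested. Fasted peaks outnumbered fed peaks on every chromosome with peaks, by 1.28 times on chromosome 13 to 1.60 times on X. The lost share was highest on chromosome 13, with 15.8% (14.1 to 17.7%), and no PPARα peak was on Y.

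**Figure D4:**
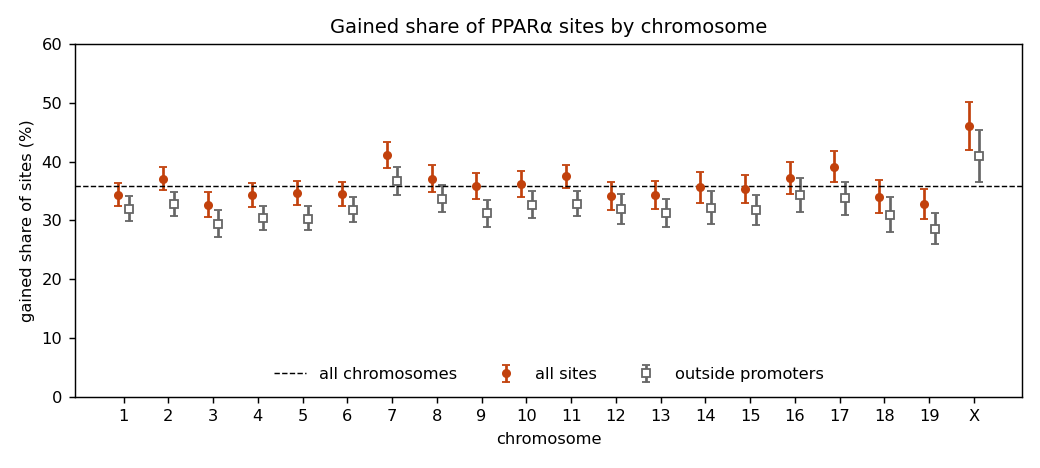
Gained share (%) of PPARα sites on each chromosome for all sites (filled orange circles) and for sites outside promoters (open squares), with 95% Wilson intervals and the share over all chromosomes (dashed line, 35.9%). Chromosome X is highest, with 46.0%, and chromosome 7 is the highest autosome, with 41.1%.

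Each site was given to the coding gene whose TSS was closest, up to 1 Mb away, and 68 sites had none. The rest fell to 10274 of 21000 genes (48.9%), at a median of 2 per gene. Of these genes 6886 (67.0%) had sites in both states, 2909 (28.3%) only in fasted and 479 (4.66%) only in fed livers. Fasted livers had more sites than fed livers at 6053 genes (58.9%) and fewer at 1352 (13.2%). Of the genes bound only in fasted livers, 2331 of 2909 (80.1%) had 1 site. The share of single-site genes among all genes was not computed, and a gene with 1 site more easily falls to 1 state. A gained promoter site was present at 1410 of the genes bound only in fasted livers (48.5%), beside 2674 of all 10274 genes (26.0%).

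Genes with many sites differed in how many they kept. The genes below are ranked by number of sites, so a gene with many sites can lead without a raised share. Over all sites 51.2% were kept, 12.9% lost and 35.9% gained. Among the genes with the most kept sites Rora, a circadian nuclear receptor, had 26 kept, 1 lost and 7 gained sites, and Irs2, which carries the insulin signal in liver, had 24, 2 and 9. Lpp had 24 kept, 2 lost and 8 gained sites, and Adgrl2 23, 4 and 7. Pik3r1, the regulatory subunit of phosphoinositide 3-kinase, had the most sites of any gene, with 23 kept, 8 lost and 9 gained. Losses were most numerous at Nrp1, a coreceptor for VEGF and semaphorins, with 10 kept, 10 lost and 3 gained sites, so that fed livers had 20 and fasted livers 13. Bcor, which encodes a corepressor of BCL6, followed with 14 kept, 9 lost and 8 gained. Id2 had 13 kept, 7 lost and 7 gained sites, and Phlda1 6, 7 and 7. Gains were most numerous at Prkag2, a regulatory subunit of the energy sensor AMPK, which went from 9 sites in fed to 24 in fasted livers with 15 gained and 0 lost. Nr5a2, a nuclear receptor of bile acid synthesis, had 12 kept, 4 lost and 14 gained sites, Myc 20, 5 and 13, and Sox9 19, 5 and 12. Nfia had 11 gained sites beside 21 kept, as many gains as Foxn3, Tcf7l2 and Nrp2.

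Most classical PPARα target genes were already bound in fed livers, and 2 had sites in fasted livers only. Of 178 sites at 29 of the 30 listed genes, 121 (68.0%) were kept, 18 (10.1%) were lost and 39 (21.9%, 16.5 to 28.5%) were gained, beside 51.2%, 12.9% and 35.9% of all sites. Every site was kept at Pdk4, which had 7 sites, at Angptl4 and Acot4 with 4 each, at Acot3 with 3, at Cpt2 and Cyp4a10 with 2 each, and at Acadvl with 1. Pdk4 spares glucose by inhibiting pyruvate dehydrogenase. Cpt1a, which admits fatty acids to mitochondria, had 5 kept and 1 gained site. The gained site lay 13382 bp downstream of the TSS with 2 mismatches to the element, and neither BCL6 nor PPARδ was there.

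A few target genes had mixed or mainly fasted sites. Ehhadh, the peroxisomal bifunctional enzyme, had 6 kept, 4 lost and 2 gained sites, and Ppara itself 12, 2 and 5. Acsl1, an acyl-CoA synthetase, had 13 kept, 2 lost and 3 gained sites. Fgf21, the fasting hormone of the liver, had 2 kept, 1 lost and 2 gained sites. Both gained sites were in its promoter, 979 and 59 bp upstream of the TSS, without a C57BL/6 peak of BCL6 or PPARδ. Cyp4a14, a fatty acid omega-hydroxylase, had 1 kept, 1 lost and 3 gained sites, one of them 77 bp upstream of the TSS. Cd36, a fatty acid importer, had 4 kept, 1 lost and 4 gained sites. Slc27a1, a fatty acid transporter, had 2 gained promoter sites and no other, and Pex11a had 1 gained intron site and no other. Fgf1 had a lost promoter site and 1 gained site, and Ucp2 had none.

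Further target genes had few changes. Plin2 had 4 kept and 1 lost site, Fabp1 6 and 1, and Creb3l3 1 and 1. Vnn1 had 2 kept and 1 gained site, Acadm 3 and 1, Slc25a20 2 and 1, Aldh3a2 4 and 1, and Acot1 4 and 3. Abcd2 had 7 kept, 2 lost and 2 gained sites, and Abcd3 9, 1 and 4. In the promoters of the target genes 8 of 25 sites were gained, whereas 59.1% of all promoter sites were.

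Pathways of fatty acid use had gained shares at or below the 35.9% of all sites. The carnitine shuttle had 4 gained of 29 sites (13.8%, 5.50 to 30.6%), mitochondrial beta-oxidation 11 of 61 (18.0%, 10.4 to 29.5%), fatty acid uptake and activation 16 of 77 (20.8%, 13.2 to 31.1%) and peroxisomal beta-oxidation 19 of 86 (22.1%, 14.6 to 31.9%). The intervals of these lie below 35.9%. Those of omega-oxidation with 13 of 52 (25.0%, 15.2 to 38.2%), the acyl-CoA thioesterases with 8 of 31 (25.8%, 13.7 to 43.2%), ketone body metabolism with 13 of 46 (28.3%, 17.3 to 42.5%) and lipid droplets and lipolysis with 32 of 91 (35.2%, 26.1 to 45.4%) include it. The genes with the most sites were Crot with 6 kept, 1 lost and 2 gained in the shuttle, and Acaa2 with 9, 1 and 2 in mitochondrial oxidation. In ketone body metabolism Bdh1 led with 5, 1 and 4. Gained promoter sites were found in mitochondrial oxidation at Acad12 and Decr1, in peroxisomal oxidation at Abcd3, Decr2 and Acnat1, and in ketone body metabolism at Slc16a1, a ketone and lactate exporter. The carnitine shuttle had none. Genes of secreted liver proteins, a hepatocyte set, had the largest kept share of the 34 lists after the carnitine shuttle, with 84 of 112 sites kept (75.0%) and 14.3% gained (8.99 to 22.0%). In that set Alb had 9 kept, 0 lost and 1 gained site and Apoa1 11, 3 and 3. Bile acid synthesis and transport had 18.9% gained (12.3 to 28.0%), and the hepatokines 16.9% (10.3 to 26.3%).

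Lists of broadly expressed cellular machinery had gained shares on both sides of 35.9%. ATP synthase subunits had 16 gained of 27 sites (59.3%, 40.7 to 75.5%), complex I subunits 19 of 41 (46.3%, 32.1 to 61.3%), cytosolic ribosomal proteins 48 of 99 (48.5%, 38.9 to 58.2%) and proteasome subunits 23 of 50 (46.0%, 33.0 to 59.6%). The citric acid cycle had 25 of 59 (42.4%, 30.6 to 55.1%), and peroxisome biogenesis 15 of 30 (50.0%, 33.2 to 66.8%). Mitochondrial ribosomal proteins had 26 of 68 (38.2%, 27.6 to 50.1%), autophagy and lysosome genes 32 of 78 (41.0%, 30.8 to 52.1%), and mitochondrial carriers 36 of 128 (28.1%, 21.1 to 36.5%). The intervals of ATP synthase and of the cytosolic ribosomal proteins lie above 35.9%, and those of the others include it. Promoters held 40.7% of the ATP synthase, 30.3% of the cytosolic ribosomal, 24.4% of the complex I and 12.0% of the proteasome sites, beside 14.0% of all sites. Of these promoter sites 8 of 11, 21 of 30, 7 of 10 and 6 of 6 were gained, beside 59.1% of all promoter sites. In the citric acid cycle 8 of 10 promoter sites were gained, at Cs, Idh2, Idh3b, Ogdh, Sucla2, Sdha, Sdhb and Fh1. With promoter sites left out the gained share was 50.0% for ATP synthase (28.0 to 72.0%) and 39.1% for cytosolic ribosomal proteins (28.5 to 50.9%), and both intervals then include the 32.1% of all such sites. For PPARα targets it was 20.3% (14.7 to 27.3%), which lies below it.

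**Figure D5:**
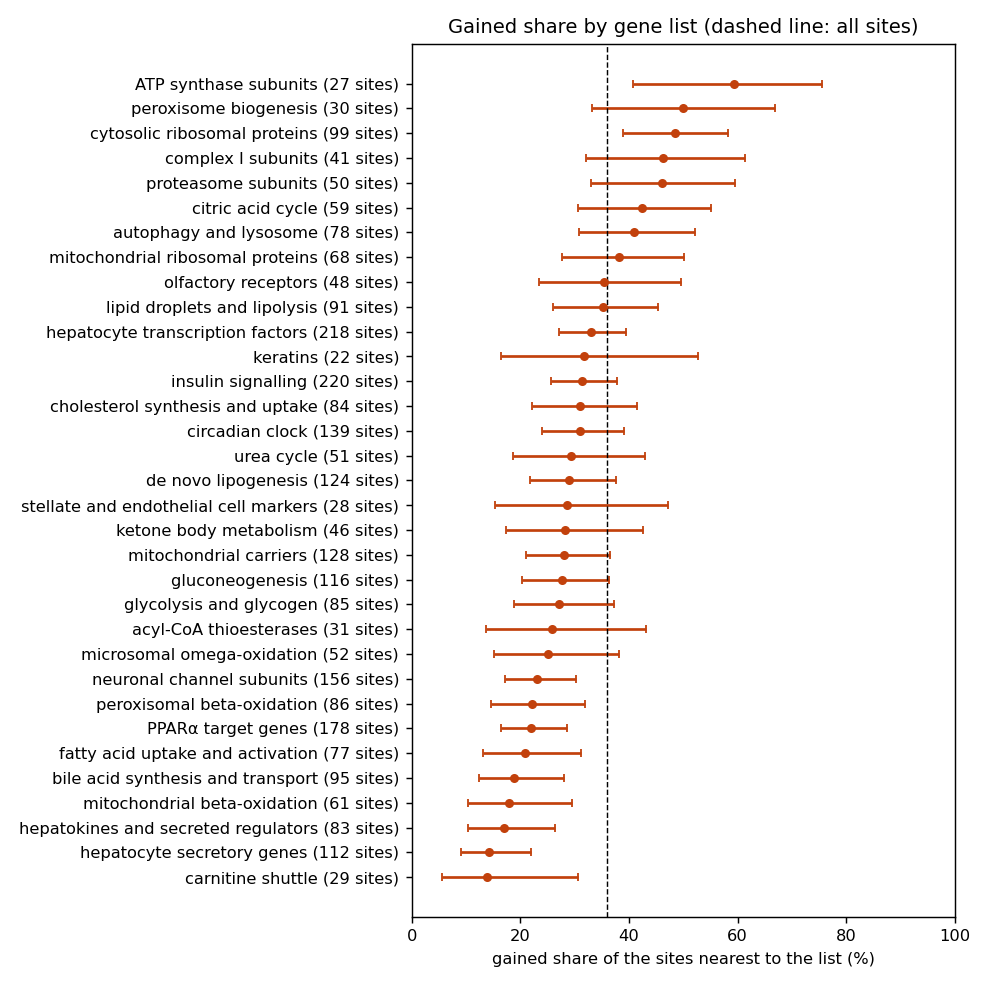
Gained share (%) of the PPARα sites nearest to each gene list with at least 20 sites, with 95% Wilson intervals; the dashed line marks 35.9%, the share of all sites. ATP synthase subunits are highest, with 59.3%, and the carnitine shuttle is lowest, with 13.8%.

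Gene lists of other tissues and cell types differed in how often they were bound. Olfactory receptors had 0.0434 sites per gene, against 1.59 over all coding genes and 5.93 for PPARα targets. Neuronal channel subunits had 22.4% of 156 sites lost (16.6 to 29.6%) and 23.1% gained (17.2 to 30.3%), beside 12.9% and 35.9% of all sites. Kupffer and immune cell markers had 10 sites at 5 of 15 genes, and stellate and endothelial markers had 28 sites at 7 of 12 genes. In a whole liver a site used in fewer cells and a weaker site cannot be told apart.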

How the data were processed

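PPARα ChIP-seq peaks of fed and fasted C57BL/6 livers (3 replicates each) were analyzed, with BCL6 and PPARδ lists of the same study. For each list the authors mapped reads to mm10 (Bowtie), called peaks over the pooled replicates relative to input DNA (HOMER) and filtered them for enrichment (DESeq2). The deposited lists hold only peak coordinates, without score or count, so no depth, replicate error or p-value is given. Whether starts count from 0 or 1 is not stated, and they were read as 1-based. Row order was not used.

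Peaks were joined into sites by single linkage at 200 bp. Annotation used 45756 curated RefSeq transcripts and the genome of GRCm38.p6. The PPAR element (12 scored positions) and the other motifs were searched in 100 bp, and CpG density in 200 bp. Shares carry 95% Wilson and differences 95% Newcombe intervals, computed in Python 3.11.15 with NumPy 2.4.6 and pandas 2.3.3, and a difference was called where the interval left out 0. The functions were tested on simulated data.

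The sites and gene lists were chosen with earlier results of these data known. Genes named are the PPARα targets, the 5 genes with the most kept, lost and gained sites, leading genes of the lists, and genes of oxidation, ketone body and citric acid cycle lists with a gained promoter site. Cell markers are named outside this rule. Some target genes are not reported here. Sequences follow the order stated with them, 2 a class. The rule also asked for 2 gained promoter sites of complex I or citric acid cycle genes with the ETS motif, and none free of exons met it.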

Additional observations from a re-analysis of the deposited data

How the results depend on the processing

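No paired analysis was possible because each list pools its replicates, which also prevented leaving out a replicate. Shares of promoters, CpG-dense windows, the PPAR element and BCL6 or PPARδ peaks were recomputed with matching at 100 or 400 bp, interval overlap and autosomes only, and each also with the other definitions that concern it (promoter, CpG, element or single factor list). Their gained minus kept and lost minus kept differences kept their direction and their side of 0 in these settings, except gained minus kept for the PPAR element over all sites. The differences in other motifs, flanking bases, hexamers, factor retention and spacing were not recomputed. Matching at 100 bp gave 77.6% of fed peaks kept and 42.9% of fasted peaks gained, and at 400 bp 80.7% and 40.6%. The PPAR element difference between gained and kept over all sites was -0.110 points at a matching distance of 100 bp (-0.799 to 0.586). Its interval left out 0 on the negative side in a 200 bp window (-0.835 points, -1.65 to -0.0101). It left out 0 on the positive side with at most 1 mismatch (0.603 points) and at sites that are not CpG-dense (2.08 points). Outside promoters the difference was between 1.06 and 2.44 points in all settings. Gene lists and chromosomes were compared with the gained share over the sites of the same setting. Of the 34 gene lists, 25 lay below the 35.9% of all sites with a gene. With a reach of 100 kb 25 lay below 37.2%, and with promoter sites left out 23 lay below 32.1%. The comparison of chromosomes outside promoters was chosen after seeing the data. With all sites 9 chromosomes were above the share of all sites. Outside promoters 9 were above the share of all sites outside promoters.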
